A study of Mus musculus with 15 samples.

Results

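The genes described here are 40 mouse genes of glycolysis and of the response to low oxygen, taken by symbol from the 24034 gene lines of a count table of sorted cells. All 40 symbols had a line in the table, and all 40 passed the filter on low counts with 13662 genes in all. They comprise 4 glucose and lactate transporters, 16 glycolytic enzymes, 2 lactate dehydrogenases, 4 regulators of glycolytic flux, 6 subunits and regulators of the hypoxia-inducible factors (HIF), and 8 other hypoxia response genes. RNA had been sequenced from 15 libraries in 5 groups of 3, all from mouse embryonic stem cells that were differentiated and sorted. The cells carried the bacterial LacZ reporter under the promoter of Endoglin (Eng), a co-receptor of the TGF-beta family. In the first line the promoter was joined to the enhancer at -8 kb, and this line gave the groups labelled HEI, which were ENG+FDG+, ENG-FDG+ and ENG+FDG- cells. ENG is the surface protein and FDG a fluorescent substrate of the reporter enzyme. In the second line the promoter was joined to the enhancers at -8, +7 and +9 kb, and this line gave FLK1+ cells (FLK1 is the receptor encoded by Kdr) that were LacZ+ or LacZ-. Per the series' design text, the longer construct was used to find mesoderm with blast colony potential and the shorter one to find endothelium with blood-forming potential. Every HEI group thus came from one reporter line and every FLK1+ group from the other, so stage and reporter line cannot be told apart. Whether a line was 1 clone, and whether replicates were separate cultures, is not given in the sources used here, so p-values measure only the spread between these libraries.

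Glycolysis splits glucose into pyruvate in the cytosol and yields ATP without oxygen, and lactate dehydrogenase then turns pyruvate into lactate, which leaves the cell through monocarboxylate transporters. When oxygen is scarce, HIF alpha subunits escape hydroxylation by the EGLN enzymes and breakdown through VHL, pair with ARNT and bind a short core motif near genes for glucose uptake, glycolysis and mitophagy. Pluripotent and early embryonic cells are known for high glycolytic gene expression, and endothelial cells for expression of the HIF subunit gene Epas1.

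Library totals were 9673396 to 16337785 counts. The 5 replicate 1 libraries stood apart from the 10 others in every group: their totals were 12188618 to 16337785 counts against 9673396 to 11747575, and the ribosomal RNA gene Rn45s took 1.40% to 3.56% of counts against 0.524% to 0.784%. Values within each replicate number and from fits with the replicate number as a block are therefore given where they change a call. Levels are CPM, counts scaled to a common library size with TMM factors, and levels of different genes are compared only per kilobase of exon. Replicates 2 and 3 of a group were much alike, with correlations of log2 CPM of 0.987 to 0.990. The fit of replicates 2 and 3 alone had a common coefficient of variation between libraries of 0.076, against 0.477 in all libraries. Calls of that fit measure only this small spread. The gated gene Eng was at 180 to 904 CPM in HEI ENG+FDG+, 39.4 to 161 CPM in ENG-FDG+ and 184 to 962 CPM in ENG+FDG- libraries. Kdr was at 404 to 1036 CPM in HEI libraries and 319 to 715 CPM in FLK1+ libraries. The summed level of 15 endothelial markers was 2881 to 7101 CPM in HEI libraries and 516 to 1038 CPM in FLK1+ libraries. That of 8 primitive streak and pluripotency markers was 2.04 to 14.04 CPM in HEI libraries, with Fgf8 at 0 in all 9, and 581 to 2000 CPM in FLK1+ libraries. In these bulk samples, fewer cells of a type and less RNA per cell cannot be told apart.

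The members were lower in HEI than in FLK1+ cells as a group. Together they held 0.513% to 0.883% of all counts in the 9 HEI libraries and 0.897% to 1.69% in the 6 FLK1+ libraries, and the 2 ranges did not overlap. In the edgeR quasi-likelihood fit over all 15 libraries, 19 of 40 members were lower in HEI at a Benjamini-Hochberg adjusted p under 0.05, beside 20.3% of all genes tested, and 3 were higher, beside 17% of all genes. The median log2 difference of the 40 members was -0.62, beside -0.11 for all genes tested. With the replicate block, 25 members were lower and 6 higher, beside 37.4% and 28.8% of all genes, and all 22 calls of the fit without the block were among these 31. Within every replicate number, all HEI libraries were below all FLK1+ libraries for 17 members, beside 22.1% of all genes, and above them for 4, beside 18.2%. The lower members were 11 of 16 glycolytic enzymes, both lactate dehydrogenases, 3 of 4 transporters, 1 of 6 HIF and oxygen sensing genes and 2 of 8 other hypoxia genes. Of the 4 flux regulators, 0 passed in edgeR without the block, 0 with DESeq2 and 1 with the block.

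**Figure D1:**
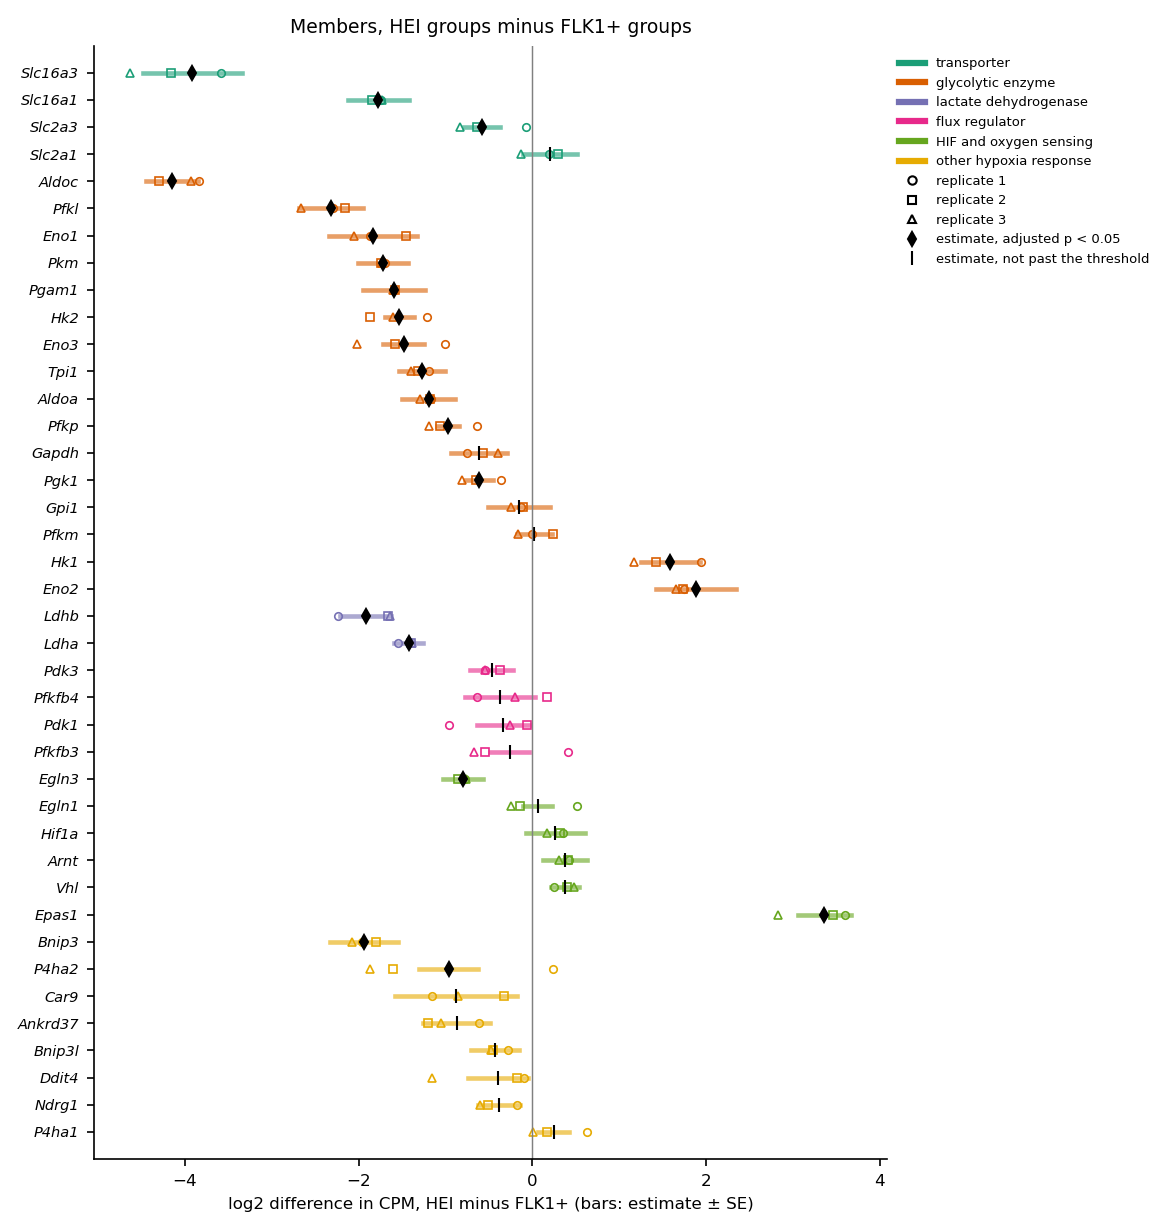
Log2 difference in CPM between HEI and FLK1+ groups (horizontal axis) for the 40 members (rows, coloured by role). Black marks are the edgeR estimates with bars of ± SE, diamonds are members past an adjusted p of 0.05, and open symbols are the differences within replicates 1, 2 and 3. Most enzymes and both lactate dehydrogenases lie left of 0, down to -4.15 for Aldoc, while Hk1, Eno2 and Epas1 are diamonds to the right, up to 3.36.

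The HIF core motif stood in promoters of members that fell and of members that did not. RefSeq (GRCm38.p6) gave promoters, 250 bases before to 50 after the start, for 36 of 40 members and no entry matched Bnip3l, Epas1, Ndrg1 or Slc2a3. The motif ACGTG, on either strand, stood in a promoter of 24 of the 36 genes (66.7%), beside 5886 of 27025 genes with a promoter (21.8%). Members' promoters are rich in G and C, and among promoters with at least 60% G and C the motif stood in 21 of 28 of the members (75.0%) and 2568 of 9690 of all (26.5%). It stood in 12 of 18 members that were lower in HEI, in Hk1 and not Eno2 of those that were higher, and in 11 of 16 of the others. A match is a description of the letters and not a bound site. Promoters of 3 members that fell and of Hk1, which rose, are shown, with every copy of the motif in capitals. CACGTG reads ACGTG on both strands and so counts as a pair of overlapping matches. The stretches are Ldha at chr7:46845554-46845853 (+ strand), Slc16a3 at chr11:120948817-120949116 (+ strand), Bnip3 at chr7:138909457-138909756 (- strand) and Hk1 at chr10:62340372-62340671 (- strand). Ldha has 2 listed promoters and Hk1 has 2, and the one holding the motif is shown.
Ldha: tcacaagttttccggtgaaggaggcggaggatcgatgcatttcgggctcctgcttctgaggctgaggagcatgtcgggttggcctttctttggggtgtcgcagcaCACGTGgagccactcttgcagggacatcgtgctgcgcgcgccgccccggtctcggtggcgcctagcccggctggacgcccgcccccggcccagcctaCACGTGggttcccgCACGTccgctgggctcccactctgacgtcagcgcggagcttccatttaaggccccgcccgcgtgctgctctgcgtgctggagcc
Slc16a3: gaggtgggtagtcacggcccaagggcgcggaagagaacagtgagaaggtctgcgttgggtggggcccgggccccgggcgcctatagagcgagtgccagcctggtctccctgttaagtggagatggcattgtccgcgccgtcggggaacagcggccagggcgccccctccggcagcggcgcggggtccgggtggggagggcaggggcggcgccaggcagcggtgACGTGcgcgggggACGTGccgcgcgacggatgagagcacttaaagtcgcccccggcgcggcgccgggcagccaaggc
Bnip3: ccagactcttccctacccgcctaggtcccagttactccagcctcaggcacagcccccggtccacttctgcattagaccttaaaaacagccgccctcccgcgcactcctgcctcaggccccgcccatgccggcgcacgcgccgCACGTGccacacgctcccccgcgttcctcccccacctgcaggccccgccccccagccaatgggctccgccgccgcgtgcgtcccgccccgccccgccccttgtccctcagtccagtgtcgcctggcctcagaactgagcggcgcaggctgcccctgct
Hk1: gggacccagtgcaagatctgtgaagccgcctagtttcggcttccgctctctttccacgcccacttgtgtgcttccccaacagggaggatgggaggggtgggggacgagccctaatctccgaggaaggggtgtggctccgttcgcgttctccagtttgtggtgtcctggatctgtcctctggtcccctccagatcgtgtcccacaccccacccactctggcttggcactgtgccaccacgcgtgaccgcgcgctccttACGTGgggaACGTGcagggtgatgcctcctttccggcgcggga
With the start base counted as 1 and the base before it as -1, the Ldha promoter held 5 matches, at -145, -144, -48, -47 and -34 from the start, the Slc16a3 promoter 2, at -27 and -14, and the Bnip3 promoter 2, at -108 and -107. The 2 matches of Hk1, at 8 and 17, lay after the start.

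**Figure D2:**
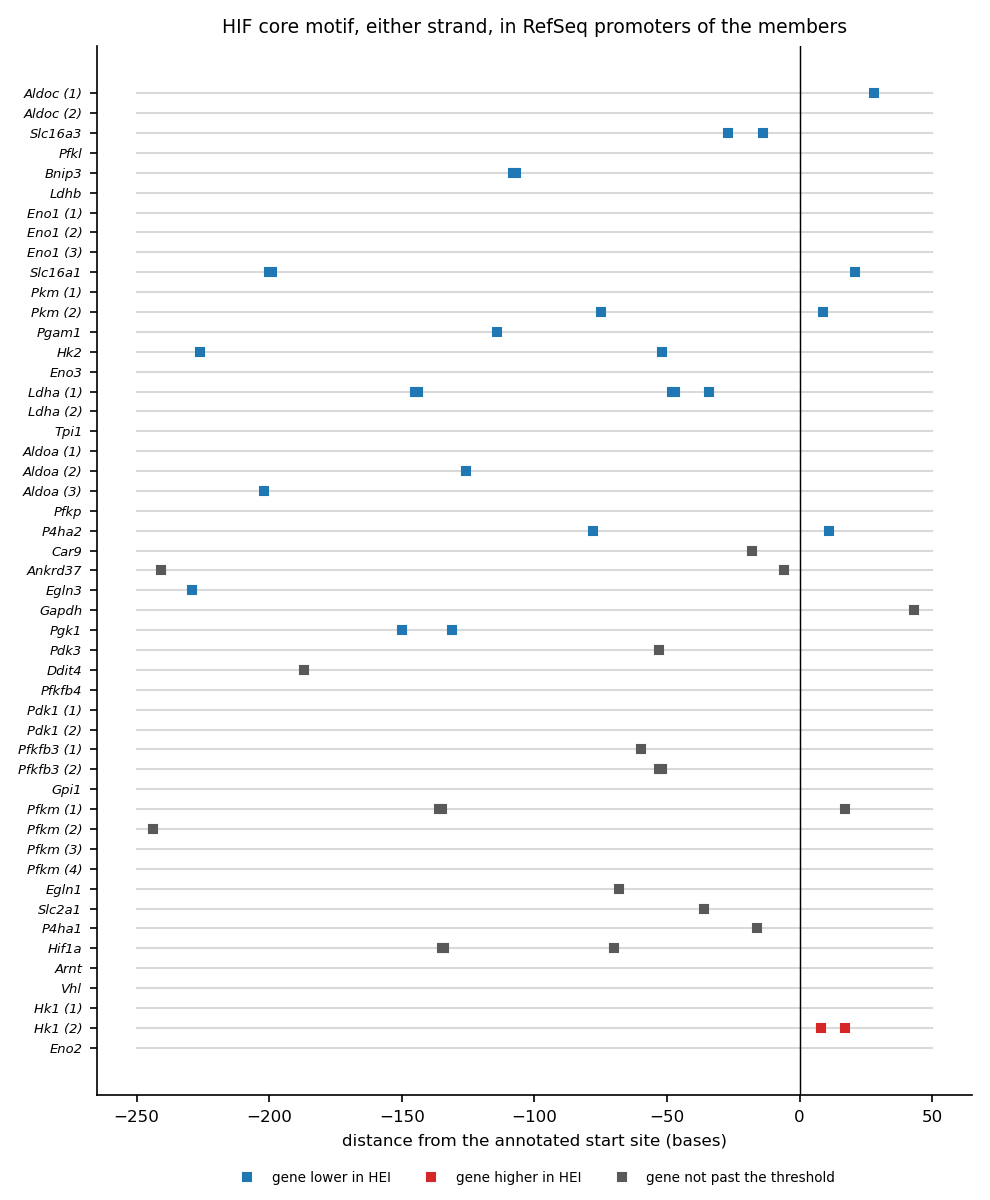
Positions of the HIF core motif on either strand (squares, first base, in bases from the annotated start) in the RefSeq promoters of the 36 members with an entry, 1 row a promoter, ordered by the log2 difference HEI minus FLK1+ with the lowest on top. Squares are blue for genes lower in HEI, red for genes higher and grey for the others, and they occur along the whole order of rows.

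Among the transporters, the lactate exporters fell and the main glucose carrier did not pass the test. Slc16a3 encodes MCT4, the lactate exporter of glycolytic cells (chr11:120948480-120960868, mm10). It was at 10.5, 3.05 and 1.99 CPM in HEI ENG+FDG+, 15.4, 3.75 and 2.56 CPM in HEI ENG-FDG+ and 14.4, 2.91 and 3.03 CPM in HEI ENG+FDG-, against 198, 60.2 and 61.7 CPM in FLK1+ LacZ+ and 129, 60.1 and 70.1 CPM in FLK1+ LacZ- (replicates 1, 2 and 3). Every HEI library was below every FLK1+ library, 15.1-fold on average (log2 -3.91 ± 0.57 SE, adjusted p = 0.000136). Slc16a1, which encodes the broadly expressed monocarboxylate carrier MCT1, had a lowest, median and highest level of 32.2, 85.8 and 127 CPM in HEI libraries and 126, 324 and 387 CPM in FLK1+ libraries. These ranges overlapped at a replicate 1 library of FLK1+ cells, and within each replicate number the groups were apart (log2 -1.77 ± 0.36, adjusted p = 0.0016). Slc2a1, which encodes the glucose carrier GLUT1, was at 293, 390 and 1577 CPM in HEI and 268, 389 and 651 CPM in FLK1+ libraries, a difference of 0.21 ± 0.31 on the log2 scale with a 95% interval of -0.48 to 0.89. The highest value belonged to replicate 1 of HEI ENG-FDG+ alone. Slc2a3, which encodes the high-affinity carrier GLUT3, was at 250, 322 and 453 CPM in HEI and 217, 506 and 792 CPM in FLK1+ libraries. Its difference of -0.58 ± 0.21 passed with an adjusted p of 0.0478 and failed in 15 of the 21 alternatives that gave a value, with an adjusted p up to 0.174, reached without replicate 3 of FLK1+ LacZ- (-0.38).

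The glycolytic enzymes were lower in HEI at most steps from glucose phosphorylation to pyruvate, and 2 isozymes ran the other way. Their summed level was 2488, 3274 and 5863 CPM in HEI libraries (lowest, median and highest) and 5129, 5521 and 12361 CPM in FLK1+ libraries, most of it Gapdh. These ranges overlapped. Per kilobase of exon, Gapdh was the most abundant member in both stages, at 612 ± 219 CPM per kilobase in HEI and 941 ± 491 in FLK1+ cells (SD, n = 9 and 6). Gapdh, glyceraldehyde-3-phosphate dehydrogenase, was not past the threshold without the block (log2 -0.62 ± 0.32, adjusted p = 0.158) and was past it with the block (-0.57 ± 0.09, adjusted p = 6.74e-05).

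The hexokinases, which trap glucose in the cell, moved in opposite directions. Hk2, the isozyme tied to high glycolytic rates, was at 35.6, 41.7 and 83.8 CPM in HEI libraries and 131, 142 and 149 CPM in FLK1+ libraries, without overlap (log2 -1.53 ± 0.17, adjusted p = 1.56e-05). Hk1, the widely expressed isozyme, was at 51.4, 24.1 and 20.9 CPM in HEI ENG+FDG+, 40.2, 15.7 and 17.9 CPM in HEI ENG-FDG+ and 50.5, 22.6 and 22.7 CPM in HEI ENG+FDG-, against 16.9, 6.90 and 8.62 CPM in FLK1+ LacZ+ and 8.69, 8.21 and 9.36 CPM in FLK1+ LacZ-. Replicate 2 of HEI ENG-FDG+ lay below replicate 1 of FLK1+ LacZ+, and within each replicate number all HEI libraries were higher (log2 1.59 ± 0.34, adjusted p = 0.00232). Per kilobase of exon, Hk1 made up 18.1%, 27.7% and 45.9% of Hk1 plus Hk2 in HEI libraries and 3.42%, 4.06% and 7.81% in FLK1+ libraries. The log2 ratio Hk1/Hk2 was 3.07 higher in HEI, with an exact permutation p of 0.0003996 (two-sided, 9 against 6 libraries) and 0.00133 after adjustment over 10 ratios. The value 0.0003996 is the smallest p when all 15 libraries are shuffled freely. This test and those of the other ratios ignore any pairing by replicate number. Within replicates 1, 2 and 3 the Hk1/Hk2 difference was 3.15, 3.29 and 2.77. Per kilobase of exon, Hk2 nonetheless remained the more abundant of the pair in all 15 libraries. In replicate 1 of HEI ENG+FDG- this order rested on the exon lengths, since Hk1 was at 50.5 and Hk2 at 41.7 CPM. The lengths, 8532 bases for Hk1 and 5969 for Hk2, join all annotated exons of a gene, and the transcripts present may be shorter.

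Among the genes of phosphofructokinase, the committing step of glycolysis, Pfkl and Pfkp fell and Pfkm did not pass the test. Pfkl, the liver-type subunit, was at 11.5, 21.1 and 51.3 CPM in HEI and 82.7, 98.5 and 209 CPM in FLK1+ libraries, and every HEI library was lower (log2 -2.32 ± 0.37, adjusted p = 0.000292). Pfkp, the platelet-type subunit, was at 25.0, 30.3 and 47.9 CPM in HEI and 52.6, 62.0 and 75.4 CPM in FLK1+ libraries, also without overlap (-0.97 ± 0.13, adjusted p = 6.45e-05). Pfkm, the muscle-type subunit, was at 16.6, 22.5 and 30.7 CPM in HEI and 18.6, 20.5 and 33.3 CPM in FLK1+ libraries, with a difference of 0.02 ± 0.20 and a 95% interval of -0.42 to 0.47. Per kilobase, Pfkl made up 24.8% to 46.3% of Pfkl plus Pfkm in HEI libraries and 67.6% to 77.0% in FLK1+ libraries (log2 ratio -2.40, exact permutation p = 0.0003996, adjusted 0.00133). Against Pfkp, the Pfkl share was 45.8% to 77.1% in HEI and 71.4% to 88.8% in FLK1+ libraries (log2 ratio -1.41, exact permutation p = 0.00559, adjusted 0.0112).

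Aldolase splits the doubly phosphorylated sugar. Aldoc, the brain-type isozyme (chr11:78322968-78327781, mm10), showed the lowest ratio of all members: it was at 0.441, 0.894 and 1.53 CPM in HEI and 13.6, 17.7 and 20.95 CPM in FLK1+ libraries (17.7-fold lower, log2 -4.15 ± 0.30, adjusted p = 4.98e-07). Aldoa, the main isozyme, was at 210, 310 and 549 CPM in HEI and 591, 623 and 1227 CPM in FLK1+ libraries (log2 -1.19 ± 0.30, adjusted p = 0.00739). Neither gene's stage ranges overlapped. Aldoc made up 0.137% to 0.439% of the pair per kilobase in HEI libraries and 1.49% to 2.79% in FLK1+ libraries (log2 ratio Aldoa/Aldoc 2.81 higher in HEI, exact permutation p = 0.0003996, adjusted 0.00133).

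Of the enzymes after aldolase, Tpi1, Pgk1, Pgam1, Eno1, Eno3 and Pkm fell, by 0.61 to 1.83 on the log2 scale. Pkm, pyruvate kinase, which makes pyruvate and ATP, was at 198, 302 and 524 CPM in HEI and 789, 828 and 1673 CPM in FLK1+ libraries, without overlap (log2 -1.72 ± 0.29, adjusted p = 0.000418). Pgam1, phosphoglycerate mutase, differed by -1.59 in replicate 1, -1.58 in replicate 2 and -1.61 in replicate 3. Pgk1, the first ATP-forming enzyme, showed the smallest called fall among the enzymes, at 130, 212 and 228 CPM in HEI and 231, 331 and 377 CPM in FLK1+ libraries (log2 -0.61 ± 0.16, adjusted p = 0.0094). Tpi1, triosephosphate isomerase, fell by 1.27 ± 0.26 (adjusted p = 0.00208). Among the enolases, Eno1 differed by -1.83 ± 0.50 (adjusted p = 0.0115) and Eno3, the muscle-type gene, by -1.48 ± 0.24 (adjusted p = 0.000328). Eno2, the neuron-type gene, was higher in HEI, at 3.37, 5.71 and 25.3 CPM against 0.900, 1.70 and 3.51 CPM in FLK1+ libraries (log2 1.88 ± 0.46, adjusted p = 0.00595), and its highest value was again replicate 1 of HEI ENG-FDG+. Gpi1, glucose-6-phosphate isomerase, differed by -0.15 ± 0.35 without the block and by -0.16 ± 0.07 with it (adjusted p = 0.0437). Transcripts of 11 members have near-identical copies elsewhere (at least 95% over 200 bases), namely Gapdh, with 75 pseudogenes among its copies, Bnip3, Bnip3l, Eno1, Gpi1, Ldha, Ldhb, Pgam1, Pgk1, Pkm and Tpi1. The division of their reads is therefore uncertain. The count table also holds a line for Eno1b, a near-identical copy of Eno1, at 29.3 to 114 CPM in HEI and 108 to 381 CPM in FLK1+ libraries. Exons of 5 members overlap another annotated gene over at least 10% of their length. These are Ankrd37 (22.7%), Bnip3 (22.3%), Pkm (15.3%), Gpi1 (11.5%) and Pfkm (10.2%). The strand setting of the counting is not known, so the division of their reads is uncertain too.

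**Figure D3:**
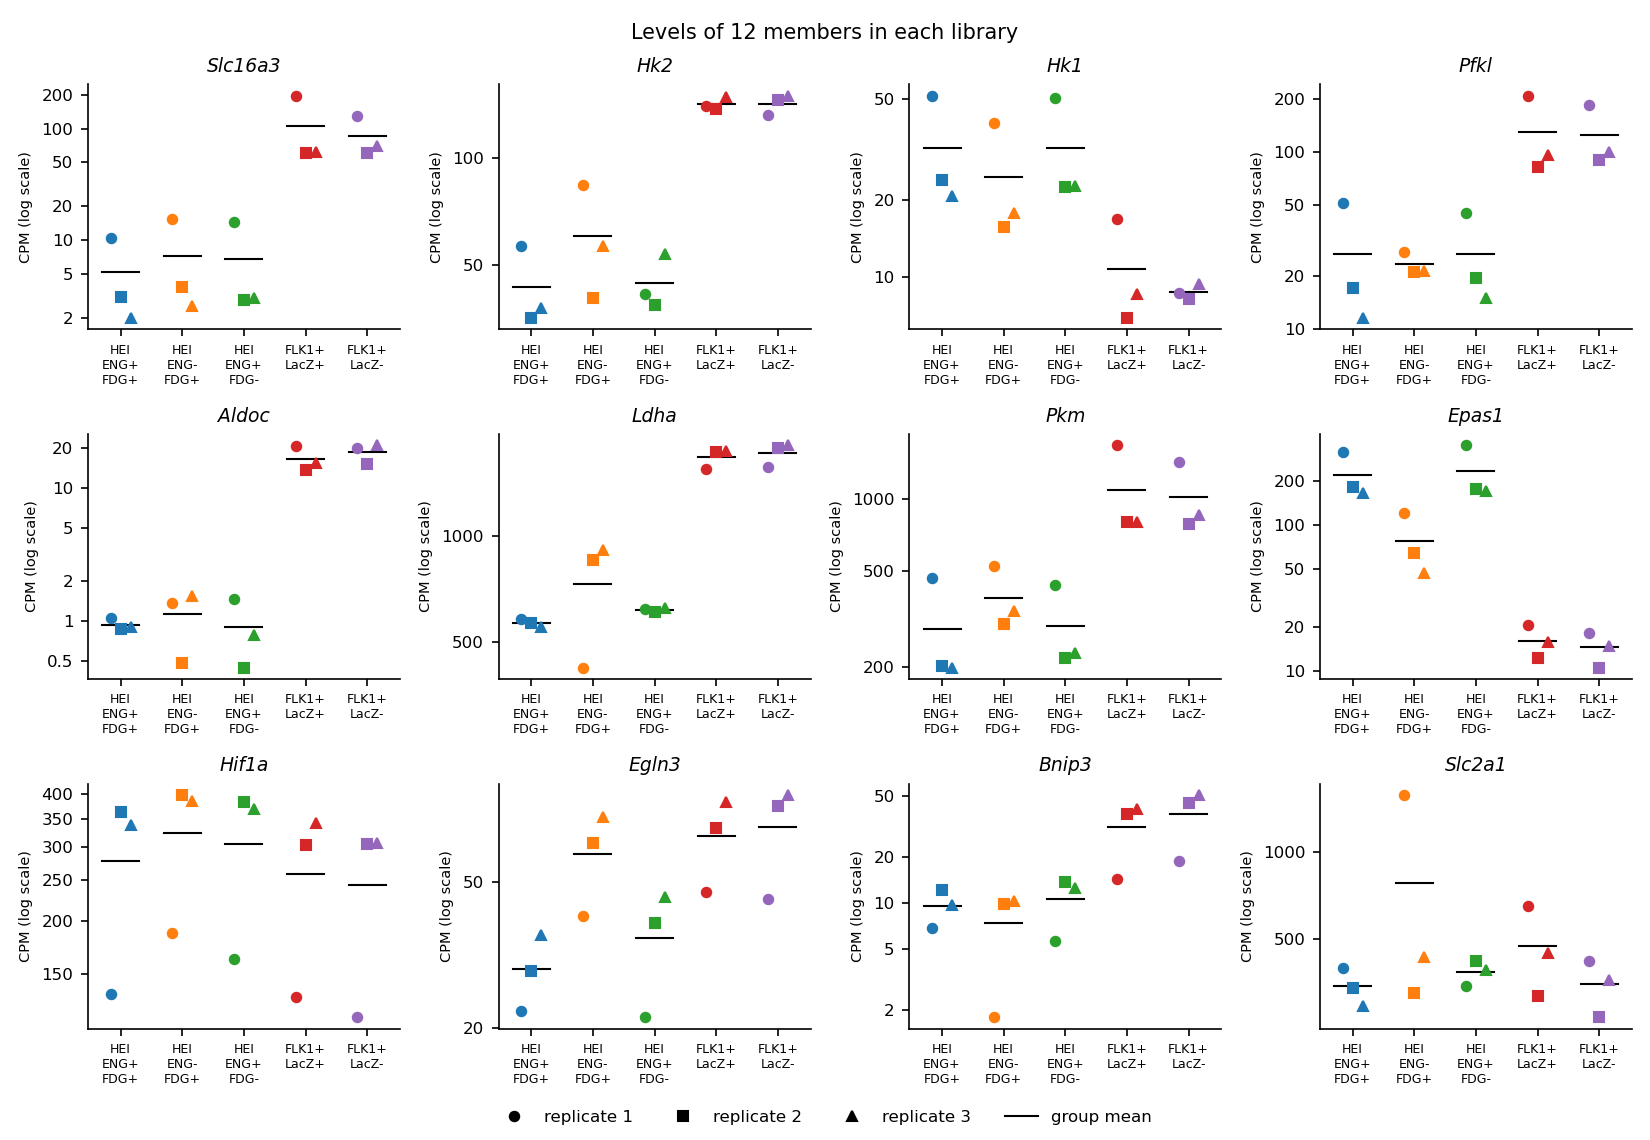
CPM on a log scale (vertical axis) of 12 members in each library of the 5 groups, with symbols for replicates 1, 2 and 3 and a line at each group mean. Slc16a3, Hk2, Pfkl, Aldoc, Ldha, Pkm and Bnip3 are lower in all HEI libraries than in all FLK1+ libraries, Epas1 is higher in all of them, and replicate 1 (circles) lies above the others for Pfkl and Pkm and below them for Hif1a and Bnip3.

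The lactate dehydrogenases fell together. Ldha, whose subunit favours lactate formation, was at 579, 566 and 549 CPM in HEI ENG+FDG+, 421, 852 and 911 CPM in HEI ENG-FDG+ and 617, 608 and 622 CPM in HEI ENG+FDG-, against 1548, 1726 and 1743 CPM in FLK1+ LacZ+ and 1565, 1773 and 1809 CPM in FLK1+ LacZ-. The groups did not overlap (log2 -1.42 ± 0.17, adjusted p = 2.67e-05). Ldhb, whose subunit favours pyruvate formation, was at 12.7, 17.1 and 35.6 CPM in HEI and 38.3, 59.7 and 117 CPM in FLK1+ libraries (log2 -1.91 ± 0.29, adjusted p = 0.000211). Ldha made up 84.9% to 97.1% of the pair per kilobase in HEI and 86.2% to 95.6% in FLK1+ libraries, and the log2 ratio Ldha/Ldhb differed by 0.40 (exact permutation p = 0.316, adjusted 0.396).

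**Figure D4:**
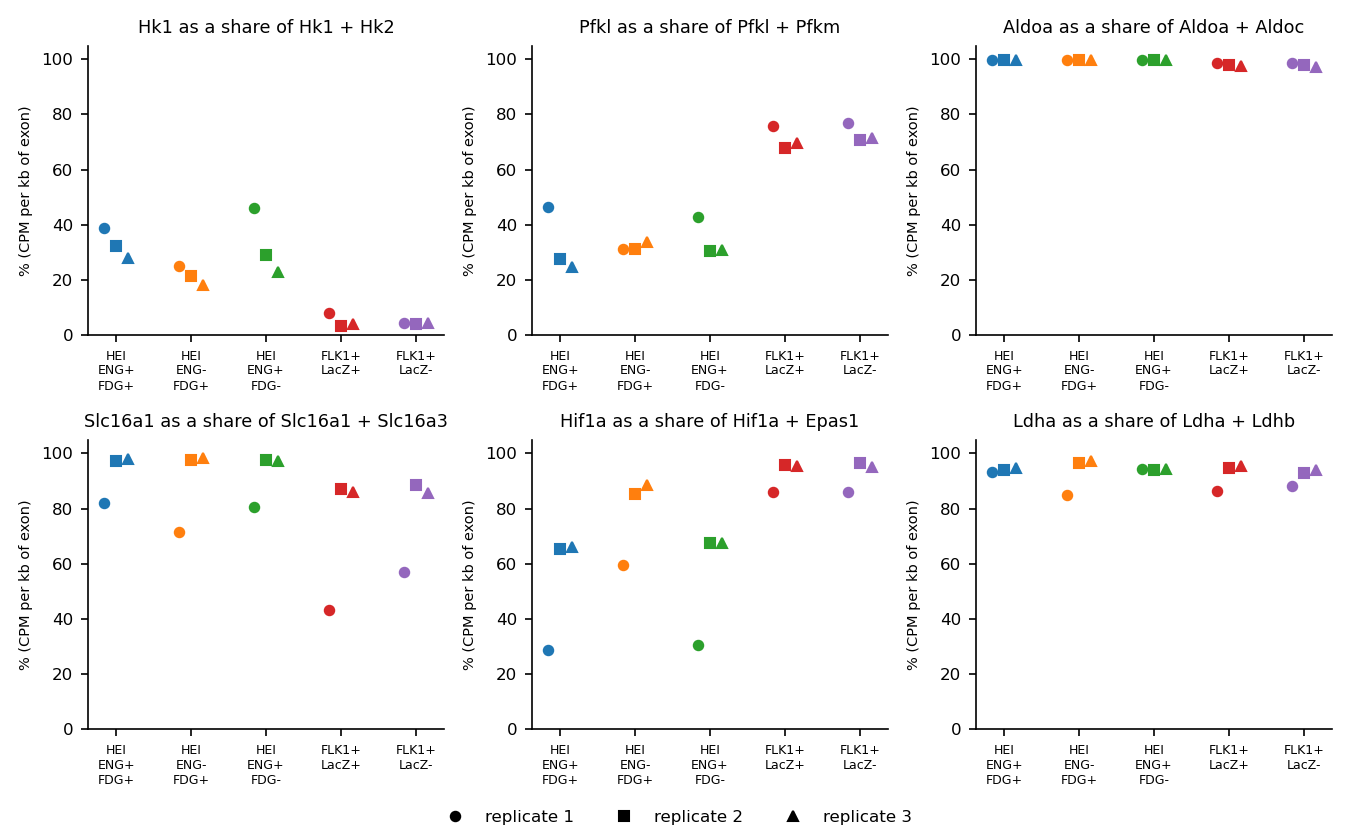
Share of the first gene in 6 pairs, in percent of the pair's CPM per kilobase of exon (vertical axis), in each library of the 5 groups, with symbols for replicates 1, 2 and 3. The Hk1 share is 18.1% to 45.9% in HEI and 3.42% to 7.81% in FLK1+ libraries, the Pfkl share of Pfkl plus Pfkm runs the other way, and the Ldha share overlaps between the stages.

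The flux regulators gave 0 calls in edgeR without the block (0 at an unadjusted p under 0.05), and 0 with DESeq2. Pdk1 and Pdk3 encode kinases that switch off pyruvate dehydrogenase, and Pfkfb3 and Pfkfb4 encode enzymes that set the level of an activator of phosphofructokinase. Their log2 differences were -0.34 ± 0.30 for Pdk1, -0.47 ± 0.25 for Pdk3, -0.26 ± 0.23 for Pfkfb3 and -0.37 ± 0.40 for Pfkfb4. Pdk3 passed with the block (-0.47 ± 0.13, adjusted p = 0.00529). The Pdk1/Pdk3 ratio differed by 0.06 on the log2 scale (exact permutation p = 0.838).

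Among the HIF and oxygen sensing genes, Epas1 rose and Egln3 fell. Epas1, which encodes HIF2-alpha, the HIF subunit prominent in endothelium (chr17:86753700-86833410, mm10), was at 314, 181 and 166 CPM in HEI ENG+FDG+, 121, 64.4 and 46.6 CPM in HEI ENG-FDG+ and 350, 175 and 170 CPM in HEI ENG+FDG-, against 20.5, 12.2 and 15.8 CPM in FLK1+ LacZ+ and 18.3, 10.5 and 14.8 CPM in FLK1+ LacZ-. Every HEI library was higher (10.3-fold, log2 3.36 ± 0.31, adjusted p = 3.57e-06). Hif1a, which encodes the broadly expressed HIF1-alpha, was at 134, 363 and 399 CPM in HEI and 118, 305 and 341 CPM in FLK1+ libraries (lowest, median and highest). Its difference of 0.27 ± 0.34 did not pass without the block (adjusted p = 0.585) and passed with it (0.28 ± 0.06, adjusted p = 0.00125). Per kilobase, Hif1a made up 28.8%, 66.0% and 88.7% of Hif1a plus Epas1 in HEI libraries and 85.9%, 95.2% and 96.5% in FLK1+ libraries, a log2 ratio 3.01 lower in HEI (exact permutation p = 0.0016, adjusted 0.0040). Arnt, the shared partner subunit, and Vhl, the ubiquitin ligase subunit that marks HIF alpha for breakdown, did not pass without the block and passed with it, at 0.38 ± 0.07 (adjusted p = 0.000288) and 0.37 ± 0.13 (adjusted p = 0.0182). Both passed in replicates 2 and 3 alone, a fit in which 73.7% of all genes passed in either direction. Vhl also passed with DESeq2 (0.40, adjusted p = 0.0224). Egln3, a HIF prolyl hydroxylase gene that is itself induced by HIF in many cells, was at 21.4, 38.7 and 74.9 CPM in HEI and 44.9, 75.1 and 86.0 CPM in FLK1+ libraries (log2 -0.80 ± 0.23, adjusted p = 0.0149). Egln1, the main HIF prolyl hydroxylase, differed by 0.06 ± 0.17 with a 95% interval of -0.29 to 0.42. The endothelial marker sums given above moved with Epas1, and their part in its difference was not tested.

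The other hypoxia response genes were a mixed group. Bnip3, a mitophagy receptor, was at 1.78, 9.91 and 13.7 CPM in HEI and 14.4, 40.0 and 51.3 CPM in FLK1+ libraries, and every HEI library was lower (log2 -1.94 ± 0.39, adjusted p = 0.00172). P4ha2, a subunit of collagen prolyl hydroxylase, differed by -0.96 ± 0.34 (adjusted p = 0.0408), but by 0.24 in replicate 1 against -1.60 in replicate 2 and -1.87 in replicate 3, and its call was lost in 11 of 21 alternatives, with an adjusted p up to 0.099. In replicates 2 and 3 alone it was -1.66. Bnip3l, the related mitophagy receptor, Ndrg1, a stress-induced gene, and Ankrd37, a HIF target, passed with the block at -0.41 ± 0.07 (adjusted p = 0.000178), -0.41 ± 0.17 (adjusted p = 0.0464) and -0.95 ± 0.30 (adjusted p = 0.0108), and not without it. Ddit4, an inhibitor of mTOR signalling, P4ha1, the other collagen prolyl hydroxylase subunit, and Car9, a carbonic anhydrase, passed in neither fit. Car9 was at most 2.55 CPM in any library.

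Genes of the same pathways outside the 40 were called in both directions. Of 25 other glycolysis and pyruvate genes, 19 were tested, and 4 were higher in HEI and 3 lower. Those with the largest differences were Ldhc (-2.68 ± 0.77, under 1 CPM on average in both stages), Pdk4 (1.90 ± 0.46), Galm (1.27 ± 0.22) and Pdk2 (0.93 ± 0.26), and the remaining calls were Pgm1, Adpgk and Pdha1. Pdk2 and Pdk4 encode further pyruvate dehydrogenase kinases, with Pdk4 at 11.3 ± 7.8 CPM in HEI and 2.83 ± 0.87 CPM in FLK1+ libraries (SD, n = 9 and 6). Of 30 other hypoxia response genes, 28 were tested, and 5 were higher and 6 lower. For both lists these counts stand beside 17% of all genes called higher and 20.3% called lower. The higher ones were Edn1, the gene of the vasoconstrictor endothelin (6.62 ± 0.61), Hmox1 (1.35 ± 0.35), Vegfa, the main vascular growth factor gene (1.27 ± 0.25), Hif3a (1.20 ± 0.16) and Plod1 (0.76 ± 0.25). The lower ones were Ak4 (-3.51 ± 0.25), Angptl4 (-2.92 ± 0.63), Pygl (-2.48 ± 0.62), Car12, Arnt2 and Fam162a. Angptl4 lay near the floor, at 0.138 CPM on average in HEI and 1.12 CPM in FLK1+ libraries. Hmox1, Vegfa, Hif3a, Plod1, Pgm1, Adpgk, Pdha1, Car12, Arnt2 and Fam162a are named beyond the naming rule, after their values were seen. None of 19 tricarboxylic acid cycle genes passed in edgeR without the block (5 at an unadjusted p under 0.05), DESeq2 called 1 higher and 2 lower, and the block gave 1 higher and 10 lower. Of 17 nuclear genes of the respiratory chain, Cyc1 (-0.73 ± 0.22) and Atp5c1 (-0.45 ± 0.14) were lower and none was higher, and the block gave 10 lower and 2 higher. The blocked counts of both lists stand beside 37.4% of all genes lower and 28.8% higher. The median log2 difference was -0.24 for the tricarboxylic acid cycle genes, -0.21 for the respiratory chain genes, 0.15 for the other glycolysis genes and -0.17 for the other hypoxia genes, beside -0.62 for the 40 members.

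Within HEI, the ENG+FDG+ and ENG-FDG+ fractions, both with an active reporter, differed in several members once the replicate number was a block. Without the block, 0 of 40 members passed in edgeR (8 at an unadjusted p under 0.05), beside 0.278% of all genes, and DESeq2 called 2, beside 2.78%. With the block 7 passed, beside 10.8% of all genes. Epas1, Pdk1 and Ndrg1 were higher in ENG+FDG+ cells, and Eno3, Egln3, Pfkp and Pkm were lower. Epas1 in the 3 ENG+FDG+ libraries (166 to 314 CPM) was above all 3 ENG-FDG+ libraries (46.6 to 121 CPM), by 1.54 ± 0.17 on the log2 scale (adjusted p = 0.000154 with the block). Egln3 was at 22.2, 28.6 and 35.9 CPM in ENG+FDG+ cells, against 40.4, 63.5 and 74.9 CPM in ENG-FDG+ cells (-1.02 ± 0.12, adjusted p = 0.000236 with the block). These values did not overlap.

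Pdk1 was at 23.6, 45.7 and 51.8 CPM in ENG+FDG+ cells, against 5.26, 25.3 and 21.5 CPM in ENG-FDG+ cells (1.28 ± 0.32, adjusted p = 0.0241 with the block). It was higher in ENG+FDG+ cells in each of the 3 replicate numbers. Ndrg1 was at 12.2, 9.999 and 10.5 CPM in ENG+FDG+ cells, against 10.2, 3.56 and 3.49 CPM in ENG-FDG+ cells (1.01 ± 0.27, adjusted p = 0.0303 with the block). Eno3 was at 13.4, 7.71 and 8.05 CPM in ENG+FDG+ cells, against 44.0, 15.3 and 16.8 CPM in ENG-FDG+ cells (-1.32 ± 0.29, adjusted p = 0.0105 with the block), and Pfkp at 30.6, 25.0 and 27.4 CPM against 47.9, 39.0 and 40.7 CPM (-0.62 ± 0.15, adjusted p = 0.0187 with the block). Neither overlapped between the fractions. Pkm differed by -0.51 ± 0.11 with the block (adjusted p = 0.011), with -0.17 in replicate 1, -0.58 in replicate 2 and -0.78 in replicate 3. In replicates 2 and 3 alone, 16 of 39 members tested passed, beside 29.3% of all genes in that fit. Of these, 5 were higher, beside 14.7% of all genes, and 11 were lower, beside 14.6%.

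ENG-FDG+ cells against ENG+FDG- cells, a comparison that shares the ENG-FDG+ libraries with the one above, gave 0 of 40 members without the block (4 at an unadjusted p under 0.05), beside 0.351% of all genes, and 2 with DESeq2, beside 2.91%. With the block 6 passed, beside 11.1% of all genes. Eno3 (1.32 ± 0.29), Egln3 (0.78 ± 0.12), Pfkp (0.57 ± 0.15) and Pkm (0.44 ± 0.11) were higher in ENG-FDG+ cells, and Epas1 (-1.59 ± 0.17) and Pdk1 (-1.26 ± 0.33) were lower, with blocked adjusted p values between 0.000128 and 0.0275. Ndrg1 was at -0.89 ± 0.27 (adjusted p = 0.0509 with the block). Of 39 members tested in replicates 2 and 3 alone, 15 passed, beside 27.1% of all genes.

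Cells of the 2 ENG+ fractions and of the ENG-FDG+ fraction also differed in markers of other cell types. The endothelial marker sum was 2881 to 3021 CPM in ENG-FDG+ libraries and 4675 to 7101 CPM in the 6 ENG+ libraries, with none of the 15 markers at 0 in all 3 libraries of a group. The sum of 11 cardiac and muscle markers was 4199, 273 and 591 CPM in ENG-FDG+ replicates 1, 2 and 3 and 97.8 to 574 CPM in the ENG+ libraries. That of 8 mesenchyme markers was 1147, 115 and 236 CPM in ENG-FDG+, against 52.2 to 89.6 CPM in the ENG+ libraries. Early haematopoietic markers summed to 952 to 1247 CPM in ENG-FDG+ libraries, against 427 to 582 CPM in the ENG+ libraries, and erythroid markers to 478 to 546 CPM and 108 to 225 CPM. The globin gene Hba-a1 had 0 counts in all. Near-identical copies were searched for the members only, so this 0 need not mean that the transcript was absent. ENG-FDG+ replicate 1, with the highest muscle and mesenchyme sums, also held the highest HEI values of Eno3, Eno2 and Slc2a1. The same was true of Hk2, Pfkp, Gapdh, Eno1, Pkm, Ldhb, Slc16a3, Pfkfb3, Pfkfb4, Ddit4, P4ha2, Ankrd37 and Car9. For other members, among them Ldha, Pgk1, Slc16a1 and Pdk1, it held the lowest HEI value. The part of these cell types in the members' differences was not tested. Without that library, the fit without the block called Ndrg1 and no other member in both comparisons, beside 0.242% and 0.307% of all genes, at 1.64 for ENG+FDG+ against ENG-FDG+ cells (adjusted p = 0.0373) and at -1.54 for ENG-FDG+ against ENG+FDG- cells (adjusted p = 0.0371).

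**Figure D5:**
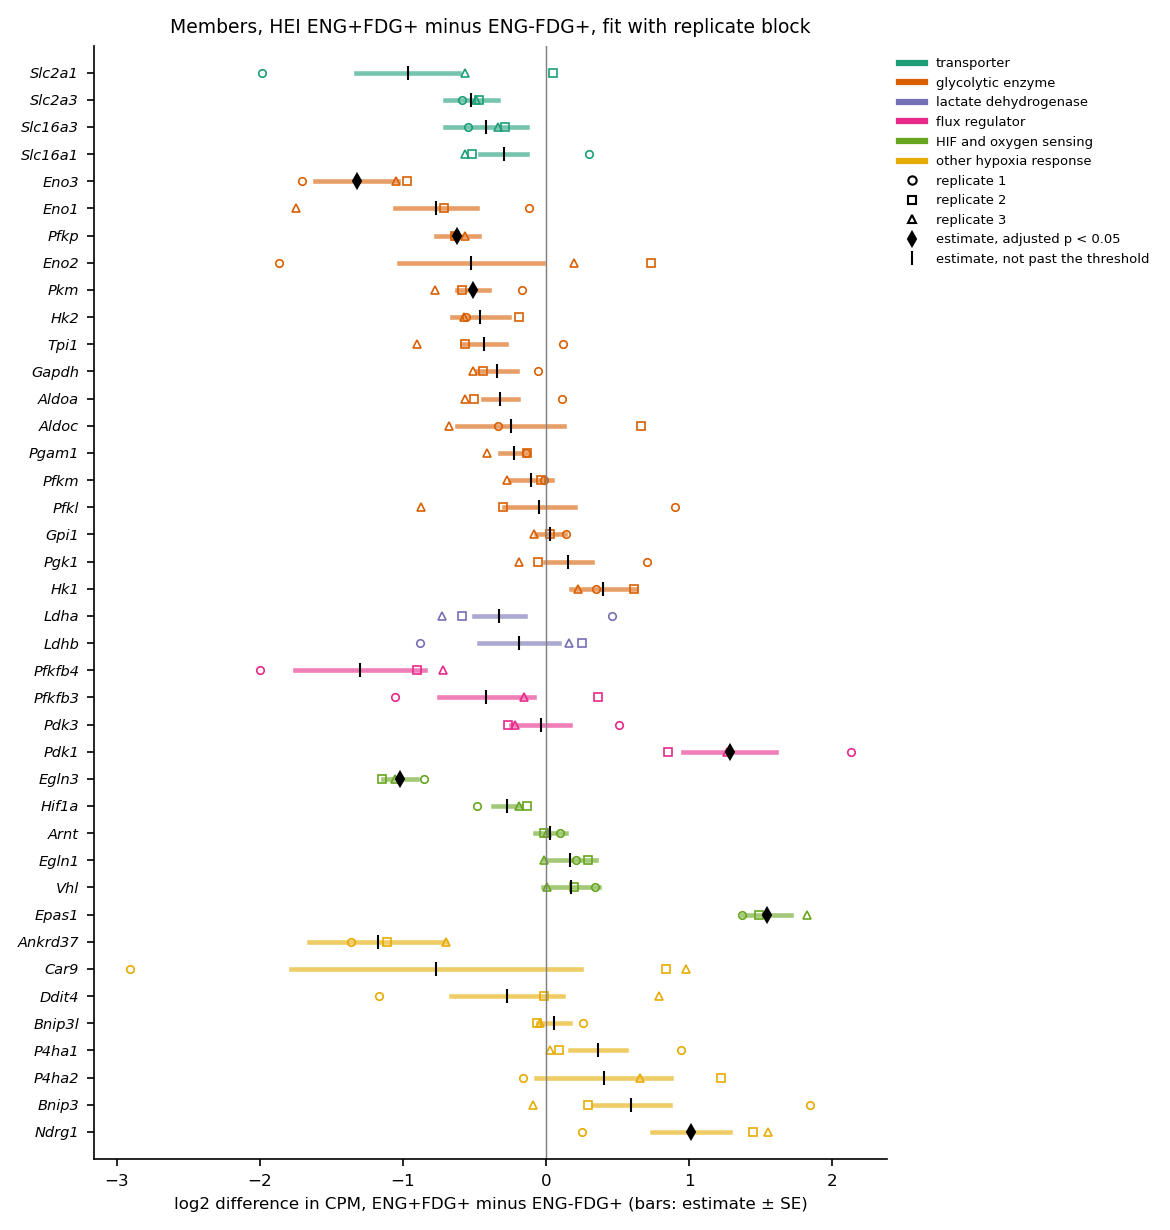
Log2 difference in CPM between HEI ENG+FDG+ and ENG-FDG+ cells (horizontal axis) for the 40 members (rows, coloured by role), from the fit with the replicate block. Black marks are estimates with bars of ± SE, diamonds are the 7 members past an adjusted p of 0.05, and open symbols are the differences within replicates 1, 2 and 3. Epas1 lies at 1.54 and Eno3 at -1.32, and replicate 1 departs from replicates 2 and 3 for Slc2a1, Eno2 and Car9.

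Other pathway genes in these 2 comparisons gave 0 calls without the block by edgeR. At an unadjusted p under 0.05 there were 5 other hypoxia genes in each and 1 other glycolysis gene in the first. DESeq2 called 0 of these genes in the first comparison, and 1 other hypoxia gene higher and 2 lower in the second. For ENG+FDG+ against ENG-FDG+ cells, the block called 10.8% of all genes in either direction. Among the other hypoxia genes it called 4 higher and 2 lower, of which Edn1 (2.04 ± 0.19), Cited2 (-1.22 ± 0.17), Vegfa (0.89 ± 0.19) and Mxi1 (0.83 ± 0.21) differed most. It called 2 tricarboxylic acid cycle genes lower (Idh3a and Suclg2), 1 respiratory chain gene lower (Cox5a) and none of the other glycolysis genes (4 at an unadjusted p under 0.05 with the block, none with DESeq2). In replicates 2 and 3 alone, 13 of 19 tricarboxylic acid cycle genes and 8 of 17 respiratory chain genes were lower in ENG+FDG+ cells and 0 were higher. In that fit 1 other glycolysis gene was higher and 3 lower. These counts stand beside 14.6% of all genes lower and 14.7% higher. For ENG-FDG+ against ENG+FDG- cells, the block called 11.1% of all genes in either direction. It called 3 other hypoxia genes higher and 4 lower, Pdk4 lower (-1.50 ± 0.43), and 0 genes of the other 2 lists (5 tricarboxylic acid cycle and 3 respiratory chain genes at an unadjusted p under 0.05, and 0 with DESeq2). In replicates 2 and 3 alone, 8 tricarboxylic acid cycle and 3 respiratory chain genes were higher in ENG-FDG+ cells, beside 13.3% of all genes, and 0 were lower.

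No member passed the threshold in either comparison of reporter activity alone. For HEI ENG+FDG+ against ENG+FDG- cells, edgeR called 0 of 40 members without the block (0 at an unadjusted p under 0.05) and 0 with it (1 unadjusted), and DESeq2 called 0, beside 0% of all genes without the block and 0% with it. For FLK1+ LacZ+ against LacZ- cells the counts of members were the same, again beside 0% of all genes in both edgeR fits. DESeq2 called 7 of the 13662 genes in the FLK1+ pair and 0 in the HEI pair. In the HEI pair, the blocked log2 differences of the members ran from -0.59 for Ankrd37 to 0.70 for Car9. By sign in the fit without the block, 31 members were lower in ENG+FDG+ cells and 9 higher, beside 7276 lower and 6346 higher of all 13662 genes. Ldha was at 549 to 579 CPM in ENG+FDG+ and 608 to 622 CPM in ENG+FDG- libraries, and P4ha1 at 61.9 to 71.6 and 75.1 to 83.7 CPM. The values of these genes did not overlap, though neither was called. The share of all genes that separate in this pair is not given here, so this is not read as a difference. Epas1 averaged 220 ± 81 CPM in ENG+FDG+ cells, against 232 ± 103 CPM in ENG+FDG- cells (SD, n = 3 each), a difference of -0.08 with a 95% interval of -0.96 to 0.81, and the interval for Ldha was -0.70 to 0.45. In the FLK1+ pair the blocked differences ran from -0.41 for Pfkfb4 to 0.60 for Slc2a3. Slc2a3 was at 486, 527 and 792 CPM in LacZ+ and 217, 405 and 597 CPM in LacZ- cells, higher in LacZ+ cells in all 3 replicate numbers (0.60 ± 0.19 with the block, adjusted p = 0.638). Without the block its 95% interval was -0.15 to 1.29. The test of whether the FDG effect in HEI differed from the LacZ effect in FLK1+ cells called 0 members and 0 of all 13662 genes in edgeR, with and without the block (0 members at an unadjusted p under 0.05 without the block and 2 with it).

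A test of any difference among the 5 groups called 15 members, beside 23.2% of all genes tested. The replicate 1 libraries differed from replicates 2 and 3 in 32 members, 21 higher, beside 39.1% of all genes, and 11 lower, beside 32.2%. The glycolytic enzymes were mostly on the high side in replicate 1, such as Eno1 (1.69 ± 0.17), Pgam1 (1.25 ± 0.06), Gpi1 (1.22 ± 0.06), Pfkl (1.18 ± 0.15) and Gapdh (1.04 ± 0.10). Hif1a (-1.26 ± 0.07), Arnt (-0.89 ± 0.07), Bnip3 (-1.36 ± 0.17), Bnip3l (-0.98 ± 0.07) and Slc16a1 (-1.33 ± 0.11) were lower there, while Slc16a3 was higher (1.80 ± 0.16). The cause of this split by replicate number was not tested.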

How the data were processed

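The authors deposited a table of unnormalized whole-number counts, with a line for each gene symbol and a column for each library. Per the labels, a Nugen kit amplified the RNA before libraries were built. Per the submitters' processing notes, the tools included STAR 2.4.0 and HTSeq 0.6.1 and the build was mm10. Nothing in those sources names a strand setting, an annotation or a filter, so overlapping and antisense genes cannot be told apart. Of 24061 lines, 27 had a date in place of a symbol (at most 0.349% of a library's counts) and were left out.

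Counts were analysed in R 4.3.3 with edgeR 4.0.16 (filterByExpr with a minimum count of 10, TMM scaling, robust quasi-likelihood fit of 5 group means over all 15 libraries, Benjamini-Hochberg adjustment over 13662 genes, threshold 0.05). HEI is the mean of 3 groups and FLK1+ the mean of 2. Log2 differences between libraries used a prior count of 2. Same-numbered libraries of different groups deviated together from their group means (correlation 0.432 to 0.867 over 30 pairs). Libraries with different numbers were not compared, and replicate 1 stood apart in every group. These correlations therefore cannot show that numbers 2 and 3 pair the libraries across groups. The replicate number from the labels was used as a block on that uncertain basis, and this fit is given where a call changes. Alternatives were the block, replicates 2 and 3 only, DESeq2 1.42.0, RLE scaling, 2 other filters, only the groups compared, and leaving out each library. Ratios of isozymes were compared with exact permutation tests over libraries (scipy 1.17.1). All libraries were shuffled freely, so the p-values of these ratios do not take any pairing by replicate number into account. Gene positions, exon lengths and overlaps came from GENCODE M21 (GRCm38, the assembly of mm10), near-identical transcripts from blastn 2.17.0, and promoters from RefSeq. The fit without the block was tested on simulated counts for HEI against FLK1+ cells, drawn without a replicate 1 shift. The other fits and tests were not tried on simulated counts. Members past the threshold with or without the block are named, with the most abundant others, and from each other list up to 4 genes past the threshold. The members, lists and tests were chosen with earlier results of these data known. Of 13 genes encoded by mitochondrial DNA, 0 had a line in the count table under the symbols searched, so they were not tested.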

Additional observations from a re-analysis of the deposited data

How the results depend on the processing

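The 22 members called between HEI and FLK1+ cells were 20 to 33 under all alternatives, beside 27.4% to 73.7% of all genes, and 20 to 22 of them were kept in each. Only Slc2a3 and P4ha2 lost their call in any alternative, in the settings that left out a library and some others. The HEI comparisons with the ENG-FDG+ fraction depended on the setting. For ENG+FDG+ against ENG-FDG+ cells, the 0 members of the fit without the block became 7 with the replicate block, 16 in replicates 2 and 3 only, 2 with DESeq2 (beside 10.8%, 29.3% and 2.78% of all genes) and 0 to 1 when a library was left out. For ENG-FDG+ against ENG+FDG- cells, the counts were 6 with the replicate block, 15 in replicates 2 and 3 only, 2 with DESeq2 (beside 11.1%, 27.1% and 2.91%) and 0 to 1 when a library was left out. The 15 members with any difference among the 5 groups became 29 with the block and 32 in replicates 2 and 3 only, beside 58.4% and 72.6% of all genes. Both reporter comparisons gave 0 members under every alternative run. The fit of replicates 2 and 3 only tested 13321 genes. Among those shared with the 13662, it gave 69 higher and 6 lower in the HEI pair, and 5 higher and 3 lower in the FLK1+ pair. DESeq2 called 0 of the 13662 genes in the HEI pair and 7 in the FLK1+ pair. With so few genes called at all, 0 of 40 says little about the members. The difference of Gpi1 between HEI and FLK1+ cells, which did not pass, ranged from -0.34 to 0.16 when a library was left out. In replicates 2 and 3 only, the log2 ratio Slc2a1/Slc2a3 passed the threshold at 0.82, against 0.64 in all libraries, and Eno1/Eno3, which did not pass, changed sign to 0.0442. The causes of these changes were not tested. RLE scaling gave a median over all genes of -0.09, against -0.11. Restricting the fit to the groups compared was not run for HEI against FLK1+ cells, which uses all groups. Depth limits the members under about 3 CPM, such as Car9.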
